A study of Homo sapiens with 8 samples.

Results

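The insulin receptor substrates IRS1 and IRS2, the receptors and inhibitors around them, and the FOXO transcription factors were followed after inhibition of mTOR, of BET proteins, or of both. The set has 10 genes: IRS1, IRS2, INSR, IGF1R, ERBB3, GRB10, FOXO1, FOXO3, FBXO32 and PIK3IP1. A member counted as measured if a probe annotated with its symbol exceeded an intensity of 20, the floor of the deposited values, on at least 2 of 8 arrays. This held for 9 of the 10 members, among 12759 genes tested in all, and for 15 of the members' 20 probes. Where a gene had several such probes, the brightest stood for it.

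Total RNA came from MNNG/HOS, a chemically transformed human osteosarcoma cell line, and was hybridised to 1 array per sample. The 4 groups of 2 arrays each were DMSO, the solvent control; JQ1, labelled 7.5 mM; rapamycin, labelled 12.5 nM; and both drugs at these doses. JQ1 displaces BET bromodomain proteins from acetylated chromatin, and rapamycin inhibits the kinase complex mTORC1. The JQ1 unit is given as labelled, the labels give no length of treatment, and all groups are the same single line. The labels do not state whether replicate arrays are separate cultures, so the spread behind each p-value is that of the deposited arrays and may be technical. In RNA from whole cultures, fewer cells of a type and less RNA per cell cannot be told apart.

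Insulin and insulin-like growth factors bind the receptors INSR and IGF1R, which phosphorylate IRS1 and IRS2, and these recruit PI3K and so activate AKT. AKT keeps the FOXO factors out of the nucleus. Active mTORC1 and its kinase S6K1 dampen the pathway by phosphorylating IRS1 and by stabilising the adaptor GRB10, so that inhibition of mTORC1 is known to relieve this restraint. When FOXO factors are nuclear they raise transcription of receptors and adaptors, among them INSR, ERBB3 and IRS2, and of FBXO32. BET proteins read acetylated histones and support transcription of many growth genes.

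Mean intensity was 455.5 to 481.6 per array, 55.7% to 58.6% of probes lay at the floor, and replicates correlated at 0.974 to 0.978. The 2 deposited tables attach different names to the same arrays: matched by rank correlation (at least 0.997 for each match, at most 0.9795 for any other pair), 6 of 8 arrays carried another group or replicate name in the table of non-normalized signal. Results below use the value table tied to the sample records, and the members' values under the other names, called the header names, are given at the end. The replicate-2-minus-replicate-1 differences correlated between all 6 pairs of groups (0.423 to 0.549), so a fit with the replicate number as a block is printed where it changes a call. Under the header names, however, every replicate 2 array is one with rapamycin and every replicate 1 array one without it. Arrays with rapamycin in the value table carry JQ1 there, and arrays with JQ1 carry replicate 2. A replicate difference and a rapamycin difference under the header names thus cannot be told apart, and the block removes either. Of 15 mesenchymal and osteoblast markers, 9 were above the floor, VIM among them at 28108.3 to 33757.1, while SP7, ALPL, THY1, COL1A2 and LUM were at the floor on all arrays. PTPRC, SPI1, CD3E and HBB of blood cells and CDH1, KRT5, KRT14 and KRT19 of epithelia were also at the floor on all arrays. Other markers of these lists were not: 4 of 8 epithelial markers and 5 of 9 blood cell markers with a probe were above it. Among them were KRT8 (836.6 to 1226), KRT18 (215.8 to 422.4), EPCAM (146.8 to 224.9), CD68 (697.2 to 1695.5) and CD14 (28.8 to 476.1).

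The promoters of IRS1 and IRS2 are shown because these adaptors moved in opposite directions in the same cells. Both windows run from 250 bases before to 50 after the RefSeq transcription start, on GRCh38.p14, 5′ to 3′ along the gene. IRS1 lies at chr2:226799771-226800070 and IRS2 at chr13:109786534-109786833, both on the minus strand. Capitals mark an E-box, CACGTG, in IRS1 and the letters TGTTTTG, the reverse complement of the insulin response element core CAAAACA, in IRS2.
IRS1: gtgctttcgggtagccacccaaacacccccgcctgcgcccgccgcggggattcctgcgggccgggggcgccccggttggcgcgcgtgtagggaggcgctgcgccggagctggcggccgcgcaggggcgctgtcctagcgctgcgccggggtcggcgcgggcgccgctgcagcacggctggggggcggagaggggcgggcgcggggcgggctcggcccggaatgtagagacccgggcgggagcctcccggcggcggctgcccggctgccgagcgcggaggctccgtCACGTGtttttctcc
IRS2: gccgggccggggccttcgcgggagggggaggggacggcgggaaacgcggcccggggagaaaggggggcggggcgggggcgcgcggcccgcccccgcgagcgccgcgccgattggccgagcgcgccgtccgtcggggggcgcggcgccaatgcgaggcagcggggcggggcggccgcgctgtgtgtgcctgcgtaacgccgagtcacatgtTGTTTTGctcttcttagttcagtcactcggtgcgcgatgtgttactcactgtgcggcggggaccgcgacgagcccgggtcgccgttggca
The CACGTG of IRS1 starts at position 36, counted from the start site, and 7.26% of all 35116 RefSeq windows of this length hold that motif. The TGTTTTG of IRS2 starts at position -40, and 4.92% of windows hold that motif on either strand. The FOXO core GTAAACA or its reverse complement TGTTTAC occurred in neither window, and 3.42% of all windows hold it. Among the 16 windows of 8 members that were searched, it occurred in 1, a second PIK3IP1 window (TGTTTAC at position 17). No window of ERBB3 or FBXO32 was searched. The motifs do not overlap, and a match or its lack describes only the letters in these windows.

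With both drugs, IRS1 fell and IRS2 rose, GRB10 fell and FOXO3 rose, so that 4 of 9 measured members were called against DMSO (2 higher and 2 lower), where 7.18% of all genes were called, 2.93% higher and 4.25% lower. Calls here are adjusted p-values under 0.05 from limma with Benjamini-Hochberg adjustment over all 12759 genes. Neither JQ1 alone nor rapamycin alone gave a member call, against 2.83% and 0.0235% of all genes called in those comparisons. At an unadjusted p under 0.05, 3 members passed with JQ1, 4 with rapamycin and 6 with both, where 18.1%, 9.89% and 23.7% of all genes did. With the replicate block the calls were 3, 1 and 6 members, against 11.2%, 0.345% and 18.9% of genes. With any 1 array left out, the combination gave 0 to 2 member calls, and 0 to 555 of all genes were called.

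IRS1 is the adaptor that S6K1 phosphorylates and that is degraded when mTORC1 stays active. Its intensity was 798.1 and 1035.7 in DMSO, 232.6 and 149.2 with JQ1, 225.6 and 553.3 with rapamycin, and 84.8 and 138.1 with both drugs. Each treated array was below both DMSO arrays, and the combination arrays were the lowest. The rapamycin arrays lay far apart, and JQ1 and rapamycin arrays overlapped. Group means were 916.9 ± 168 (SD, n = 2) in DMSO and 111.4 ± 37.7 (SD, n = 2) with both. On the log2 scale IRS1 fell by 3.07 with both drugs (SE 0.47, limma adjusted p = 0.0174), an 8.4-fold difference. The call was lost without either DMSO array (adjusted p = 0.105 and 0.113) and without either combination array (0.11 and 0.0619). With JQ1 alone the difference was -2.29 (SE 0.47, limma adjusted p = 0.0593), and with the replicate block it passed (adjusted p = 0.0182). Rapamycin alone gave -1.36 (95% interval -2.49 to -0.24, limma adjusted p = 0.396).

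IRS2, the second adaptor and a textbook FOXO target, went the other way. Its intensity was 40.9 and 48.9 in DMSO, 93.9 and 114.5 with JQ1, 169.9 and 111.2 with rapamycin, and 406.5 and 266.8 with both. Both combination arrays were above all 6 others, both DMSO arrays were below all others, and the single-drug arrays overlapped each other. IRS2 rose 7.36-fold with both drugs (log2 2.88, SE 0.31, limma adjusted p = 0.00726). Without DMSO replicate 1, DMSO replicate 2 or combination replicate 1 the adjusted p was 0.0771, 0.0554 and 0.0706, with log2 values of 2.75, 3.01 and 2.58. Rapamycin alone gave 1.62 (SE 0.31, limma adjusted p = 0.185; 0.069 with the block). JQ1 alone gave 1.21 (SE 0.31, limma adjusted p = 0.096), which passed with the block (0.0412).

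**Figure D1:**
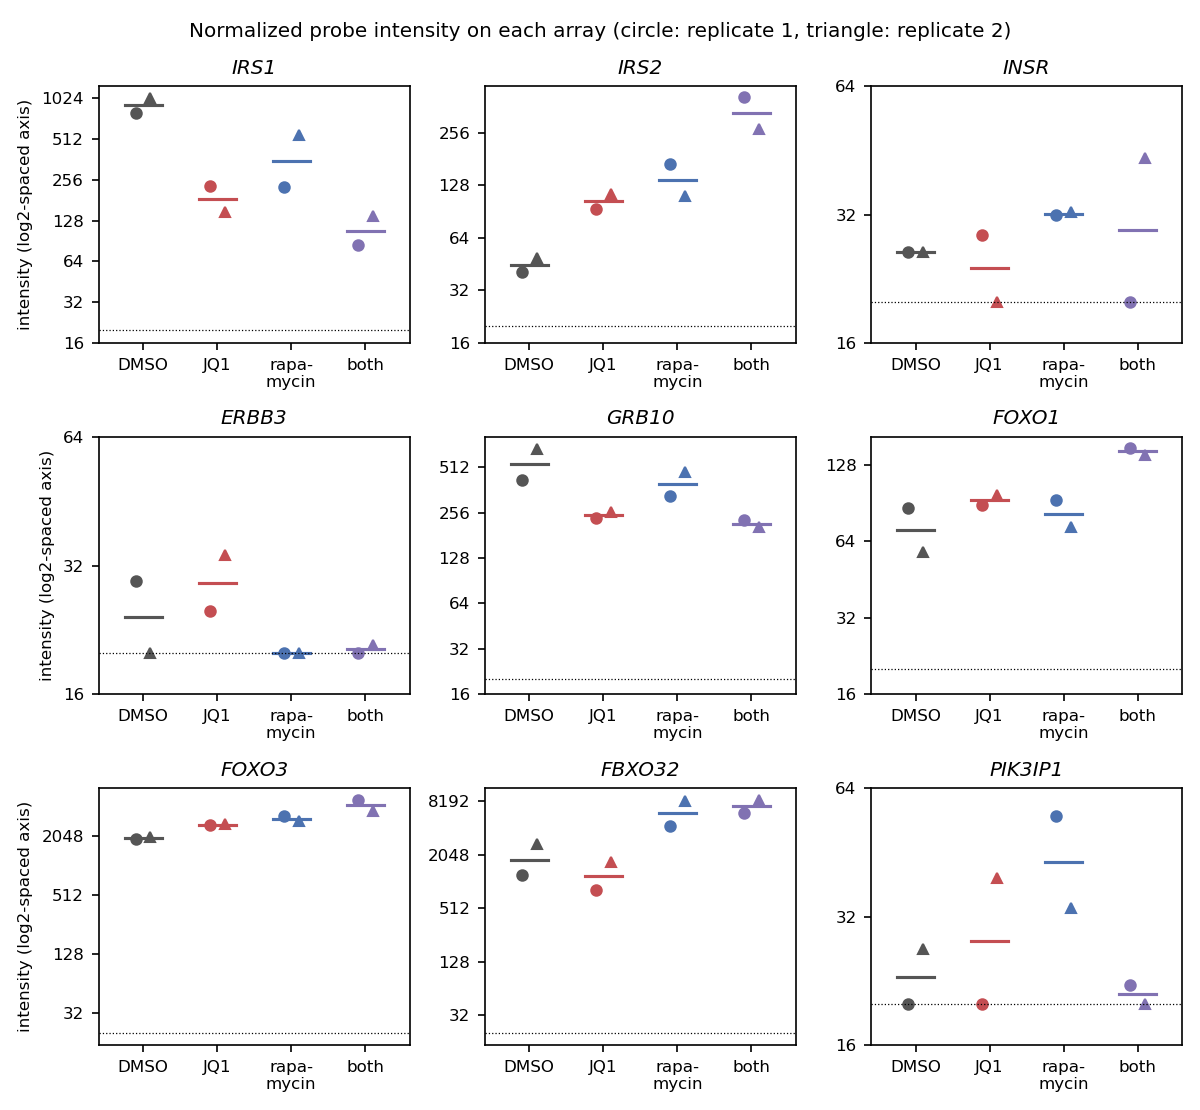
Intensity of the 9 measured members on each of the 8 arrays, on a log2-spaced axis, by group, with the floor of 20 as a dotted line and the mean of the log2 values as a bar. IRS1 was highest in DMSO (798.1 and 1035.7) and lowest with both drugs (84.8 and 138.1), and IRS2 ran from 40.9 and 48.9 to 406.5 and 266.8; INSR, ERBB3 and PIK3IP1 lay close to the floor.

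The receptors were dim and none was called in any comparison. INSR, the insulin receptor, read 26.2 and 26.1 in DMSO, 28.6 and 20 with JQ1, 31.9 and 32.4 with rapamycin, and 20 and 43.3 with both. Only the rapamycin arrays stood apart from DMSO, and the combination arrays lay on either side of it. The log2 difference was 0.30 with rapamycin (95% interval -0.58 to 1.18) and 0.17 with both (-0.71 to 1.05), intervals that hold a rise of 2-fold. ERBB3, the kinase-impaired partner of the EGFR family that recruits PI3K, read 29.5 and 20 in DMSO, 25.1 and 33.8 with JQ1, 20 and 20 with rapamycin, and 20 and 20.8 with both. Its other passing probe stayed between 20 and 27.6, and a further probe that did not pass was at 20 on all 8 arrays. IGF1R, the type 1 receptor for insulin-like growth factors, had 1 probe, which exceeded the floor on rapamycin replicate 1 alone (26.7), and it was not tested. At this signal over background a change in receptor mRNA was not detectable unless it was large.

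GRB10, which binds the insulin and IGF1 receptors and limits their signalling, fell with both drugs. Its brightest probe read 421.8 and 681.4 in DMSO, 236.2 and 256.4 with JQ1, 329.7 and 479.2 with rapamycin, and 227.3 and 206.5 with both. The JQ1 and combination arrays were all below both DMSO arrays, whereas the rapamycin arrays overlapped DMSO. The log2 change was -1.31 with both (SE 0.29, limma adjusted p = 0.0462), a 2.47-fold fall, and the call was lost whichever of the 8 arrays was left out (adjusted p = 0.0736 to 0.174). JQ1 alone gave -1.12 (SE 0.29, limma adjusted p = 0.104; 0.0303 with the block), and rapamycin alone -0.43 (SE 0.29, limma adjusted p = 0.741). A second GRB10 probe read 111 and 251.1 in DMSO and 41.7 and 50.7 with both, a log2 difference of -1.86 (SE 0.41, limma adjusted p = 0.0563 over 23860 probes). The dimmest probe did not follow them, at 30.6 and 68.7 in DMSO and 44.8 and 58.4 with both (log2 0.16, SE 0.37).

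PIK3IP1, a transmembrane protein that binds the catalytic subunit of PI3K and inhibits it, was near the floor. It read 20 and 26.8 in DMSO, 20 and 39.3 with JQ1, 55.1 and 33.5 with rapamycin, and 22.1 and 20 with both. The rapamycin arrays were above DMSO and above the combination. The difference was 0.89 with rapamycin (SE 0.39, limma adjusted p = 0.519) and -1.03 for the combination against rapamycin (SE 0.39, limma adjusted p = 0.218), and neither passed.

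FOXO3, a transcription factor that AKT holds in the cytoplasm, rose with both drugs. Its brightest probe read 1929.9 and 1984.3 in DMSO, 2638.4 and 2724.3 with JQ1, 3272.6 and 2892.2 with rapamycin, and 4801.6 and 3663.3 with both. The groups did not overlap and were ordered DMSO, JQ1, rapamycin, combination. Against DMSO the combination gave a 2.14-fold rise (log2 1.10, SE 0.21, limma adjusted p = 0.0279). The call held without combination replicate 2 (adjusted p = 0.0471) and was lost without any of the other 7 arrays (0.0549 to 0.133), with log2 values of 0.90 to 1.29 throughout. Rapamycin alone gave 0.65 (SE 0.21, limma adjusted p = 0.352) and JQ1 alone 0.45 (SE 0.21, limma adjusted p = 0.312), and JQ1 and rapamycin were not tested against each other. A second probe read 433 and 496.5 in DMSO and 1243 and 1255.9 with both and also rose (log2 1.43, SE 0.21, limma adjusted p = 0.0191 over all probes). The dimmest FOXO3 probe was near the floor, between 20 and 49.9.

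FOXO1 read 86.8 and 57.8 in DMSO, 89 and 97.4 with JQ1, 93.4 and 72.5 with rapamycin, and 149 and 140.1 with both. The combination arrays were above all 6 others, and the rapamycin arrays overlapped DMSO. The combination difference was 1.03 (SE 0.26, limma adjusted p = 0.0602) and passed with the block (0.0197). JQ1 and rapamycin alone gave 0.40 and 0.22 (SE 0.26 each; limma adjusted p = 0.515 and 0.88).

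FBXO32, the ubiquitin ligase atrogin-1 and a standard readout of FOXO activity in muscle, was high wherever rapamycin was present under the names of the value table. Under the header names the log2 change was 2.31 with JQ1 and 1.1 with rapamycin. Its brightest probe read 1217.4 and 2667.3 in DMSO, 814.6 and 1682.6 with JQ1, 4356.8 and 8145.5 with rapamycin, and 6052.6 and 8507.3 with both. All 4 arrays with rapamycin were above all 4 without it, and in every group replicate 2 was higher than replicate 1. Rapamycin alone gave a 3.31-fold difference (log2 1.73, SE 0.53, limma adjusted p = 0.331), and 0.0352 with the replicate block. The combination gave 1.99 (SE 0.53, limma adjusted p = 0.0705), and 0.00244 with the block. JQ1 alone gave -0.62 (95% interval -1.87 to 0.62). A second probe had the same split between arrays with and without rapamycin, from 355.2 to 946 without it and from 1256 to 3066.4 with it. Of 9 muscle markers, 3 were above the floor, MYH2, DES, CKM, MYOG and ACTA1 were at it on every array, and the summed level was 199.4 to 237 in DMSO, 211.7 to 233.6 with JQ1, 208 to 270.7 with rapamycin and 197.4 to 241.1 with both; the part of muscle transcripts in the FBXO32 values was not tested.

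**Figure D2:**
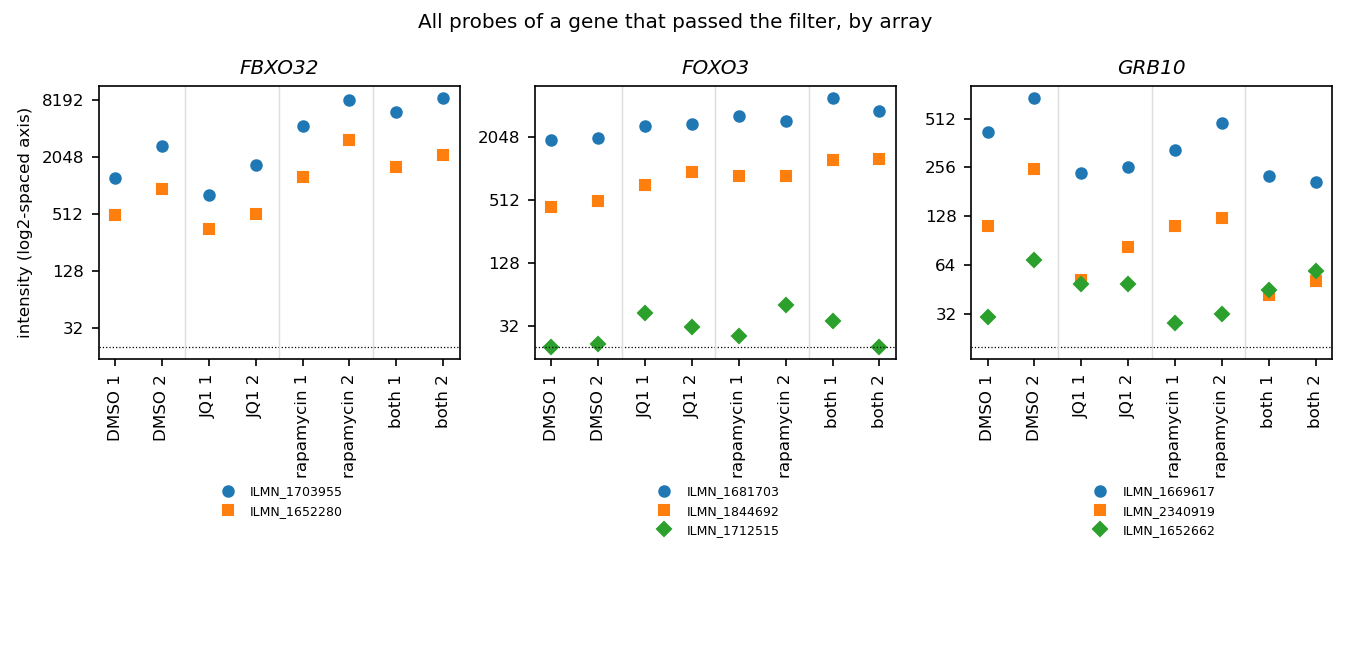
Intensity of every passing probe of FBXO32, FOXO3 and GRB10 on each array, on a log2-spaced axis with the floor of 20 dotted. The brighter pairs of probes ran in parallel across arrays, while the dimmest probe of GRB10 (28.1 to 68.7) did not follow them. The dimmest probe of FOXO3 (20 to 49.9) was above DMSO with JQ1 (log2 0.8) and with rapamycin (0.79), but overlapped DMSO with both (0.36).

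Across the set, arrays of the combination did not overlap those of DMSO for 4 members that were higher and 2 that were lower, where 22.8% and 26.1% of all genes did the same. With JQ1 these counts were 3 higher and 2 lower, against 20.2% and 23.1% of genes. With rapamycin they were 5 higher and 1 lower, against 18% and 18.4%. The median log2 change of the 9 members was 0.26 with JQ1, 0.30 with rapamycin and 0.17 with both, and the medians of all genes were 0, 0 and -0.01. The members' medians hide opposite signs, since 5, 6 and 5 members were positive. These comparisons share the DMSO arrays.

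**Figure D3:**
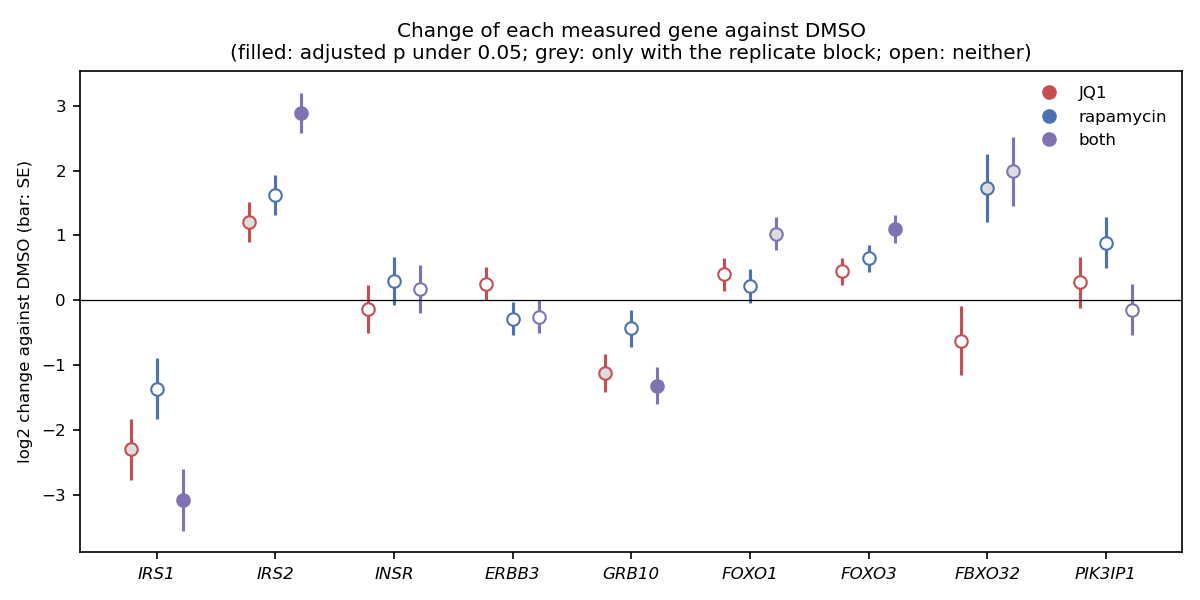
Log2 change of the 9 measured members against DMSO for JQ1, rapamycin and both drugs, with bars of 1 SE from the limma fit. Points in full colour passed an adjusted p of 0.05, grey ones passed only with the replicate block, and open ones passed neither; full colour appears only for the combination, at IRS1 (-3.07), IRS2 (2.88), GRB10 (-1.31) and FOXO3 (1.10).

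The series' title raises synergy of the drugs, which the interaction addresses as the JQ1 effect with rapamycin minus that without it. No member and no gene passed (0% called), while 1 member, PIK3IP1, and 3.51% of genes had an unadjusted p under 0.05; with the replicate block 1 gene (0.00784%) and no member was called. The PIK3IP1 interaction was -1.31 (95% interval -2.60 to -0.01, limma adjusted p = 0.999). For IRS2 the single-drug changes summed to 2.83 and the combination gave 2.88, an interaction of 0.05 (95% interval -0.98 to 1.07). For FOXO3 the sum was 1.11 and the combination 1.10 (interaction -0.01, interval -0.70 to 0.68). For IRS1 the sum was -3.65 against -3.07 (interaction 0.58, interval -1.01 to 2.17), and for FBXO32 it was 1.10 against 1.99 (interaction 0.89, interval -0.87 to 2.65). Under the names of the value table, single-drug changes of IRS2 and FOXO3 added on the log2 scale within these intervals. The intervals still hold departures of up to 0.70 for FOXO3 and 1.07 for IRS2 on that scale. Under the header names the interaction was -0.69 for IRS2 (interval -3.55 to 2.17) and -0.20 for FOXO3 (-1.16 to 0.77), with wider intervals.

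**Figure D4:**
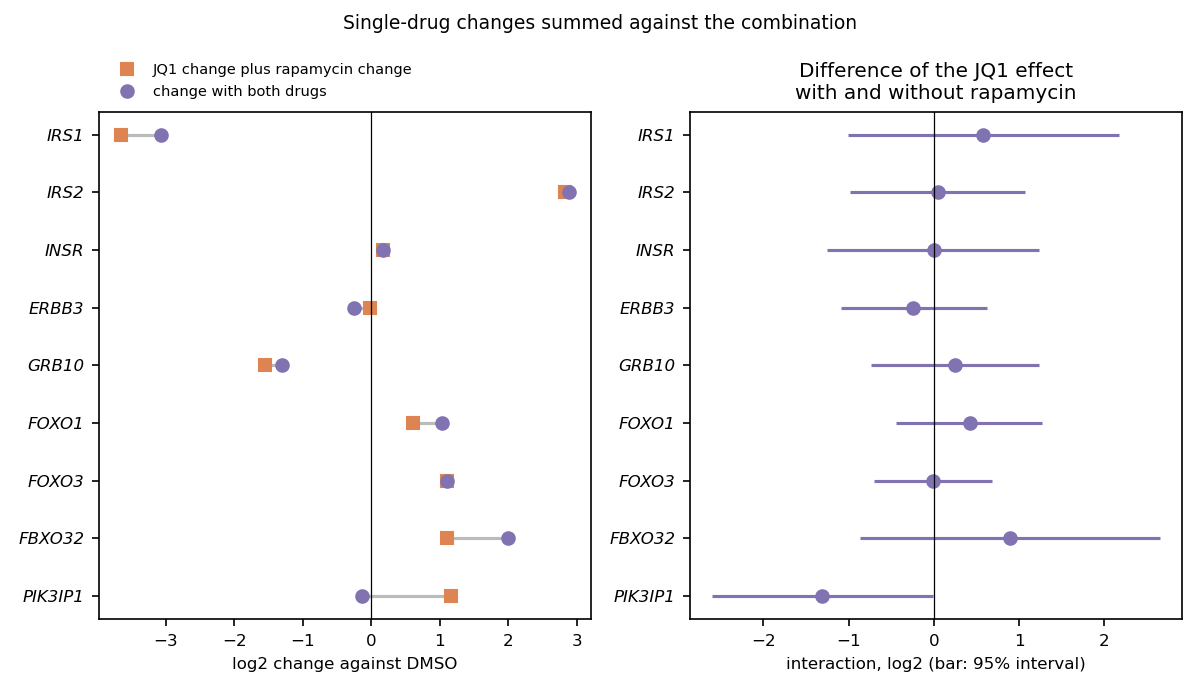
Left, the sum of the single-drug log2 changes (squares) beside the change with both drugs (circles) for each measured member; right, the interaction with its 95% interval. Under the names of the value table, used here, IRS2 (2.83 and 2.88) and FOXO3 (1.11 and 1.10) nearly coincide. Every interval on the right except that of PIK3IP1 (-2.60 to -0.01) includes 0.

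Against the single drugs, adding rapamycin to JQ1 gave no called member and no called gene (0%), with 4 members and 8.28% of genes at an unadjusted p under 0.05. FBXO32 showed the widest gap there, 814.6 and 1682.6 against 6052.6 and 8507.3 (log2 2.62, SE 0.53, limma adjusted p = 0.373), and it alone of the members passed with the block (0.0354), where 0.0157% of genes did. IRS2 gave 1.67 (SE 0.31, limma adjusted p = 0.36). Adding JQ1 to rapamycin gave no called member, against 2.62% of genes, while 5 members and 18.3% of genes had an unadjusted p under 0.05. With the block 2 members passed, against 11.3% of genes: IRS1 at -1.71 (limma adjusted p = 0.113, 0.0429 with the block) and IRS2 at 1.26 (0.0811, 0.036 with the block). FBXO32 differed there by 0.27 (SE 0.53) and its arrays overlapped.

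Among 132 other genes listed for the pathway, 101 were measured. With both drugs 13 of them were called higher and 2 lower, or 14.9% against 7.18% of all genes. JQ1 gave 2 higher and 2 lower calls (3.96% in all, against 2.83% of genes, 1.06% higher and 1.77% lower) and rapamycin none (0% against 0.0235%). With any 1 array left out, the combination gave 0 to 6 higher and 0 to 1 lower calls. The replicate block gave 20 higher and 11 lower, where it called 18.9% of all genes.

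FOXO target genes, 30 measured, held 7 of the 13 rises, and none was called lower, where 2.93% of all genes were called higher and 4.25% lower. A positive change was seen for 24, with a list median of 0.64, against -0.01 for all genes. The share of all genes with a positive change was not counted. The list was not sorted by the direction in which FOXO factors act on a gene, and it also names CCND1 and CCND2. With rapamycin alone 25 were positive (median 0.44) and none was called. TXNIP, a thioredoxin inhibitor that limits glucose uptake, read 80.1 and 120.4 in DMSO and 1527.5 and 8740.4 with both (log2 5.22, limma adjusted p = 0.0484), with the combination arrays far apart. GADD45A, a growth arrest and DNA repair gene, read 464.1 and 459.4 in DMSO and 4930.3 and 1358.3 with both (2.49, limma adjusted p = 0.0426). HBP1, a repressor of cell cycle genes, read 51.9 and 132.4 in DMSO, 79.6 and 120.4 with JQ1, 469.6 and 608.3 with rapamycin, and 377.2 and 400.6 with both (2.23, limma adjusted p = 0.0333). HBP1 thus had the same split as FBXO32, high on all 4 arrays with rapamycin in the value table. As for FBXO32, the drug changed with the names: under those of the header HBP1 gave 2.58 with JQ1 and 0.67 with rapamycin (adjusted p = 0.135 and 0.582). SESN1 and TOB1, a stress-induced inhibitor of mTORC1 and an antiproliferative factor, split by JQ1 instead under the names of the value table. SESN1 was 44.8 and 66.7 in DMSO, 183.4 and 223.3 with JQ1, 55.5 and 62.8 with rapamycin, and 126.7 and 165.8 with both. It rose with JQ1 (1.89, limma adjusted p = 0.0208) and with both (1.41, 0.0288), and so did TOB1 (1.39, 0.0193, and 1.28, 0.0144). Under the header names neither was called: SESN1 gave -0.13 with JQ1 and 0.14 with both, and TOB1 -0.49 and -0.45. The autophagy gene MAP1LC3B (2.02, limma adjusted p = 0.0188) and the transcription factor KLF6 (1.80, 0.0102) rose with both drugs. Under the header names MAP1LC3B gave 1.07 and KLF6 1.19 with both (limma adjusted p = 0.487 and 0.125). TXNIP gave 4.11 and GADD45A 1.27 there (0.299 and 0.366). Each of these genes kept its sign and lost its call in the header-name fit without the block. The block gave 12 rises and 1 fall in this list, where it called 18.9% of all genes, and leaving out 1 array gave 0 to 4 rises, where it left 0% to 4.35% of all genes called.

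Other parts of the pathway had few calls, to be read against 2.93% of all genes called higher and 4.25% lower with both drugs. Of 11 ligands, NRG1, a ligand of ERBB3, fell from 288.1 and 256.7 in DMSO to 63 and 62.3 with JQ1 and to 64 and 36 with both, and was 410.3 and 287.2 with rapamycin. Its fall passed with JQ1 (-2.12, limma adjusted p = 0.0242) and with both (-2.50, 0.0106), but under the header names the differences were 0.44 and -0.34 (adjusted p = 0.994 and 0.938). PDGFC, a platelet-derived growth factor, also fell with both (-1.68, limma adjusted p = 0.0283), while HBEGF, a ligand of EGFR, rose (1.87, 0.0452). Under the header names PDGFC gave 0.03 and HBEGF -0.94 (adjusted p = 0.995 and 0.759), so that both lost their call and turned sign. None of the 10 genes in the IGF binding protein list, which also holds IGFALS, PAPPA and STC2, was called against DMSO. However, the block called 1 lower with JQ1 and 2 lower with both, and IGFBP5 was called higher with both under the header names (2.33, adjusted p = 0.0475). None of 8 other receptors was called with both drugs. EGFR fell with JQ1 (-1.37, limma adjusted p = 0.0416) and was 131.1 and 148.5 with both, against 279.3 and 251.5 in DMSO (-0.93, 0.0743). Under the header names EGFR gave 0.64 with JQ1 (adjusted p = 0.878) and 0.46 with both. Among PI3K and AKT enzymes, 3 of 13 rose with both: PIK3R1, the regulatory subunit that docks on IRS proteins (1.36, limma adjusted p = 0.0242), PDPK1, which phosphorylates AKT (0.85, 0.0398), and SGK1, an AKT-related kinase (0.96, 0.0386). PIK3R1 was 119 and 95.8 in DMSO, 196.3 and 247.1 with JQ1, 71.5 and 55.3 with rapamycin, and 250.6 and 298.8 with both, so it was highest on the arrays labelled JQ1 in the value table. Under the header names PIK3R1 gave -0.34 with JQ1 and -0.54 with both (adjusted p = 0.992 and 0.834). PDPK1 and SGK1 lost their call there too, at 0.07 and 0.61 with both (limma adjusted p = 0.977 and 0.445). In the value table SGK1 was higher with rapamycin alone (1886.8 and 2026.3) than with both (1427.4 and 1512.2). Single genes were called in the last groups, which in lists of this size is near the share over all genes. Of 17 adaptors CBLB, a ubiquitin ligase that limits receptor signalling, rose (1.01, limma adjusted p = 0.0464). Of 12 brakes TRIB1, a pseudokinase, rose from 696.1 and 750.6 to 2627.9 and 2144.7 (1.72, limma adjusted p = 0.00856). Neither was called under the header names, where CBLB gave 1.24 and TRIB1 0.95 with both (limma adjusted p = 0.0899 and 0.418). DDIT4, also of the brakes list, was called higher there with rapamycin (3.12, limma adjusted p = 0.0436) and with both (3.03, 0.0204). Under the names of the value table DDIT4 gave 1.22 and 0.81 (limma adjusted p = 0.856 and 0.763).

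The genes most like each member were taken as the 2 with the highest Pearson correlation of log2 values over the 8 arrays, which share groups and replicate sets, as a description. For IRS2 these were FOXO3 (0.993) and TRIB1 (0.984), and for FOXO3 they were IRS2 (0.993) and SELENOK (0.991). IRS2 and FOXO3 had the same order of groups, with changes of 1.21, 1.62 and 2.88 for IRS2 and 0.45, 0.65 and 1.10 for FOXO3 with JQ1, rapamycin and both. IRS1 was most like SNRNP35 (0.972) and CDCP1 (0.971), GRB10 like NETO2 (0.994) and ARID3A (0.991), FOXO1 like DGCR11 (0.969) and ZNF425 (0.967), and FBXO32 like IL17RD (0.984) and EAPP (0.982). For the members near the floor the likeness rests on few values above it.

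Under the header names of the non-normalized signal, most member results changed. The values here are that signal after quantile normalization, so an array that keeps its name also reads differently. DMSO replicate 1 read 1275.8 for IRS1, against 798.1 in the value table. Under the names of the value table the same signal gave -3.18 for IRS1 and 3.10 for IRS2 with both drugs. IRS1 then read 1275.8 and 360.1 in DMSO and 791.5 and 228.2 with both, a log2 difference of -0.67 (limma adjusted p = 0.837). IRS2 read 64.4 and 206.1 in DMSO and 167.1 and 419.2 with both (1.20, limma adjusted p = 0.528, and 0.0175 with the block). Under these names the DMSO arrays of both genes overlapped the combination arrays. GRB10 gave -0.11 (limma adjusted p = 0.96) and FOXO3 0.56 (0.366). With rapamycin alone the header names gave -0.12 for IRS2, 0.01 for FOXO3 and -0.05 for IRS1, in place of 1.62, 0.65 and -1.36. FBXO32 (1.1), PIK3IP1 (0.81) and ERBB3 (-0.33) kept their sign there, while INSR (-0.53), GRB10 (0.35) and FOXO1 (-0.21) turned theirs. IRS2 gave 2 with JQ1 alone, in place of 1.21, and passed with the block (limma adjusted p = 0.0289), as it did in the value table. FBXO32 read 1838.8 and 1270.8 in DMSO, 7113.9 and 8092.8 with JQ1, 4145.2 and 2580.6 with rapamycin, and 13827.3 and 11093.9 with both. It was the 1 member called, higher with both drugs (3.02, limma adjusted p = 0.0261), and its JQ1 difference was 2.31 (0.141, and 0.0419 with the block) in place of -0.62. FBXO32 was thus higher with both drugs under either naming, whereas the single drug with the higher values was rapamycin under one and JQ1 under the other. Of the 30 FOXO targets, 5 were called higher with both drugs, against 0.776% of all genes called in either direction: HBP1 (2.77), BCL6 (2.84), BNIP3 (1.71), CCNG2 (3.66) and YPEL5 (2.85). HBP1 was the 1 gene of these called under both namings. With rapamycin alone the header names called BNIP3 (2.07) and CCNG2 (2.26) higher (limma adjusted p = 0.0436 each), against 0.196% of all genes. With JQ1 alone they called CCNG2 (3.37, limma adjusted p = 0.0238), against 0.0235%. With the block, the header names gave 13 targets higher and 1 lower with both drugs, where 13.3% of all genes were called. They gave 5 higher with rapamycin, against 1.98% of genes, and 3 higher with JQ1, against 0.47%. Header-name values printed for single pathway genes are from the fit without the block. IRS1, IRS2, GRB10 and FOXO3 with both drugs were called without the block under the names of the value table only, and with it IRS2 alone of the 4 was called under the header names too. DMSO replicate 1 and combination replicate 2 keep their names, so 1 of 2 arrays on each side of this comparison is the same in both versions, and a shared sign is no independent evidence.

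**Figure D5:**
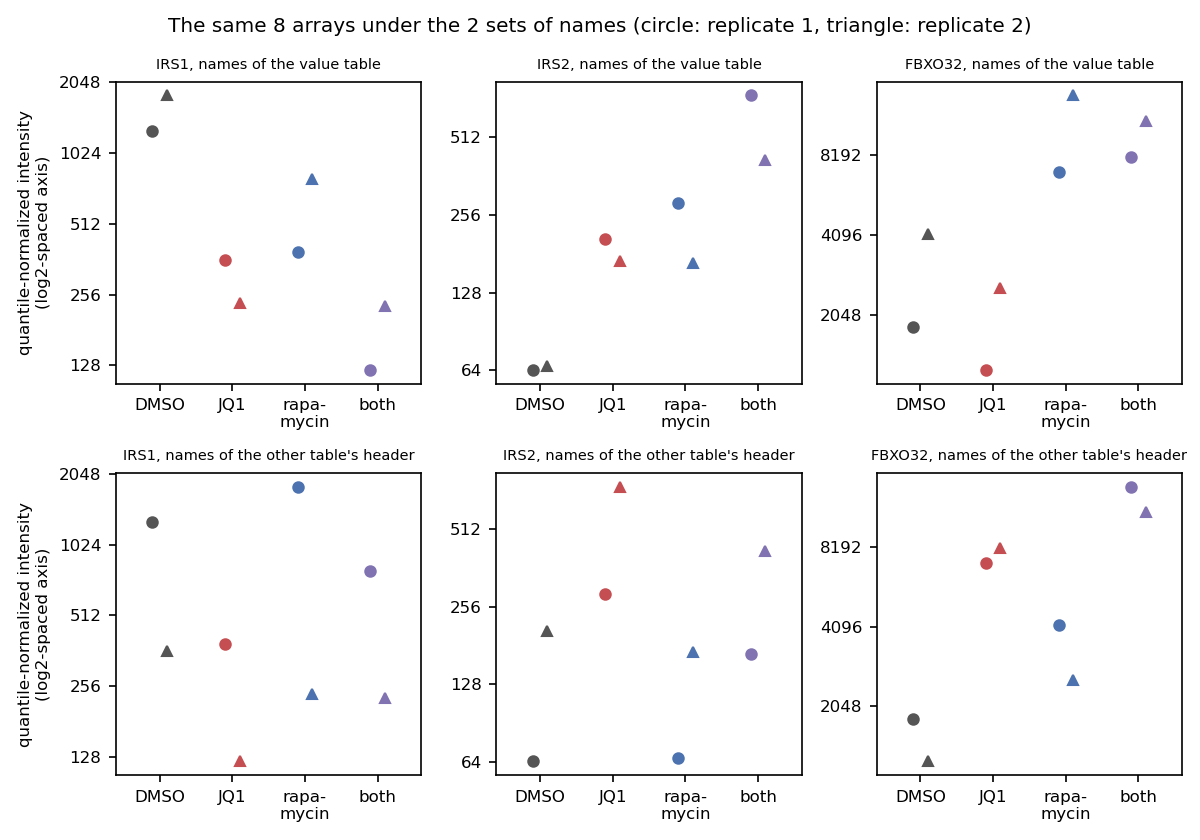
Quantile-normalized intensity of IRS1, IRS2 and FBXO32 on the same 8 arrays, on a log2-spaced axis, grouped by the names of the value table (top) and by those heading the non-normalized signal (bottom). Below, the IRS1 values of a group lie far apart (1275.8 and 360.1 in DMSO), while FBXO32 is high with both drugs in either row and with JQ1 only in the lower one (7113.9 and 8092.8).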

How the data were processed

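Biotin-labelled cRNA of 8 samples was hybridised to arrays whose probe identifiers are Illumina's. Trizol extraction, column clean-up with DNase I and an Ambion labelling kit are named per the labels' protocols. The authors deposited a value table of normalized linear intensity with a floor of 20, and a non-normalized intensity table in which 28.3% to 30.3% of values per array were below 0, so that a background had been subtracted. The software behind them is not named in the sources used here.

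From 47304 probes, 30102 with 1 gene symbol (8 had several, 17194 none), 23860 exceeded 20 on at least 2 arrays. The gene identifiers of 30063 probes were found in RefSeq (GRCh38.p14), whose symbols were used whether or not they differed. The brightest probe by mean log2 intensity represented a gene (12759 genes, 3326 with several probes). Log2 values were fitted with limma 3.58.1 (R 4.3.3), a mean per group over all 8 arrays (4 residual and 2.92 prior degrees of freedom), with Benjamini-Hochberg adjustment per comparison, after a test on simulated data. The number of arrays limits the precision. Replicate numbers 1 and 2 recur in every group, and the correlations between them count as pairing here, although no label says what the numbers mark. Under the header names the same split of arrays is rapamycin against no rapamycin, so the pairing holds only if the names of the value table do. Alternatives covered scaling, filters, probe choice, table, array names, the replicate block, variance models and each array left out; a floor of 32 and the header names with the block were added after the data were seen.

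Members and gene lists were chosen with earlier results of these data known. Besides the members, genes named are up to 3 per pathway list with the smallest p, every list member called, and the 2 genes nearest to each member; the FOXO targets named under the other array names were chosen after their values were seen. Promoter windows came from RefSeq; those of ERBB3 and FBXO32 were not used here.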

Additional observations from a re-analysis of the deposited data

How the results depend on the processing

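Over the 22 alternatives that keep the array names of the value table, the combination's IRS1 difference from DMSO ran from -3.42 to -2.65 and passed in 14, IRS2 from 2.10 to 3.18 (18), FOXO3 from 0.90 to 1.29 (12) and GRB10 from -1.65 to -0.96 (7). Taking the mean of the gene's probes gave -1 for GRB10 (limma adjusted p = 0.128), its dimmest probe being flat. IRS1 with JQ1 passed in 5 of 22. Each group has 2 arrays, and the receptors near the floor limit what could be detected.

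Counts below are of genes called against DMSO for JQ1, rapamycin and the combination, then the combination against JQ1 and against rapamycin, then the interaction, with members named as such. The main counts were 361, 3, 916, 0, 334 and 0 genes, and 4 members for the combination. No filter gave 145, 15, 236, 12, 107 and 18 genes and 1 member for the combination. Probes above 20 on all arrays gave 1 gene for rapamycin and 1 member for JQ1. Normexp with an offset of 50 gave 650, 20 and, against rapamycin, 656 genes, and 1 member for JQ1. The non-normalized table with a floor of 20 gave 1 member for JQ1, 1 gene against JQ1 and 1 for the interaction. The trended robust prior gave 7 genes for rapamycin and 1 member for JQ1. Centring gave 9 genes for rapamycin, and array weights 10. A floor of 32 gave 38 genes for rapamycin, 2 members for the combination and 2 interactions. Only the 4 arrays compared gave 0 genes for JQ1, rapamycin, the combination and the combination against rapamycin, and 0 members. An adjusted p under 0.01 gave 28, 117 and, against rapamycin, 0 genes, and 1 member for the combination. The header names gave 3, 25, 99, 4 and 0 genes and 1 member for the combination. The replicate block, on the replicate numbers of the value table, gave 1427, 44, 2416, 2, 1445 and 1 genes, and 3, 1, 6, 1 and 2 members. Header names with the block gave 60, 252, 1691, 254 and 0 genes, and 2 members for JQ1 and 2 for the combination; FBXO32 with JQ1 reversed there to 2.31. Leaving out 1 array gave 0 to 163, 0 to 4, 0 to 555, 0 to 0 and 0 to 73 genes, and 0 to 2 members for the combination. Apart from the results shown with it, the block changed no member's call. The causes of these differences were not tested. A block on slide or scan date was not run, and the 4-array fit cannot give an interaction.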
